A study of Zea mays with 2 samples.

Results

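Markers of the parts of the maize endosperm through which the kernel is fed and in which the embryo lies were compared between a defective kernel mutant and the wild type. The 7 genes were chosen by identifier among the 41406 genes of the deposited tables. They are betl2, betl4, betl-9, betl10 and bap-3a for the basal transfer layer, and esr2 and esr6 for the embryo-surrounding region. All 7 had a value in both libraries and reached the minimum level used below. The data are messenger RNA sequencing of endosperm from Zea mays kernels 12 days after pollination, with 1 library for each of 2 genotypes, dek40 and wild type. The samples carry the name dek40 in their titles and genotype fields, whereas the title of the series speaks of dek41, and the name of the samples is used here. The type of allele, the genetic background of either plant, the number of kernels pooled and the way the endosperm was freed from the embryo and the maternal tissue are not stated in the labels or files used.

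The basal endosperm transfer layer consists of cells with ingrown walls at the base of the kernel, next to the maternal tissue, and it takes up sugars and amino acids for the whole endosperm. Its cells secrete small proteins, several of which act against fungi, and many of its genes are switched on by the transcription factor MRP-1. The embryo-surrounding region is a small group of endosperm cells lining the cavity of the embryo. Its cells make small secreted peptides of the CLE family, which act as signals between plant cells, and antimicrobial defensins.

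Levels are given as deposited, in RPKM for dek40 and in FPKM for the wild type (reads or fragments per kilobase of gene, scaled to the number mapped). Both are levels per length, so genes can be compared within a library. As deposited, the median gene stood 1.34-fold higher in dek40 (a log2 shift of 0.42). The log2 ratios below are therefore dek40 over wild type after multiplying the dek40 values by 0.747, with a pseudocount of 1, which understates the difference of low genes. The minimum level was 1 in at least 1 library after scaling, which 28178 genes reached, and a gene was called higher or lower at 2-fold. Neither genotype had a replicate, so no test was made and each call describes these libraries only. The range beside a ratio or a level is an exact 95% counting interval, which covers counting error only and not the choice of scaling.

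Of the 7 markers, 6 were lower in dek40 endosperm, against 4.99% of all genes at the minimum level, and 0 were higher, against 6.33% of all genes. Their median log2 ratio was -2.49, against 0.02 for all 28178 genes. The markers and the gene lists used below were chosen with earlier results of these data known. The comparison with all genes is therefore a description and not a test. The marker that was not lower was bap-3a. With the values as deposited 6 were again lower, against 2.65% of all genes, and with scaling to the sum of all genes other than zeins 6 were lower, against 3.5%. At 4-fold, 5 of the 7 were lower, against 0.791% of all genes, and esr2 was the one of the 6 within that limit. These shares of all genes include low genes, which the pseudocount can keep from being called. The 6 lower markers stood at 39.4 FPKM or more in the wild type, so their levels are unlike those of such genes. Because the samples are bulk endosperm, fewer cells of a type and less RNA per cell cannot be told apart.

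**Figure D1:**
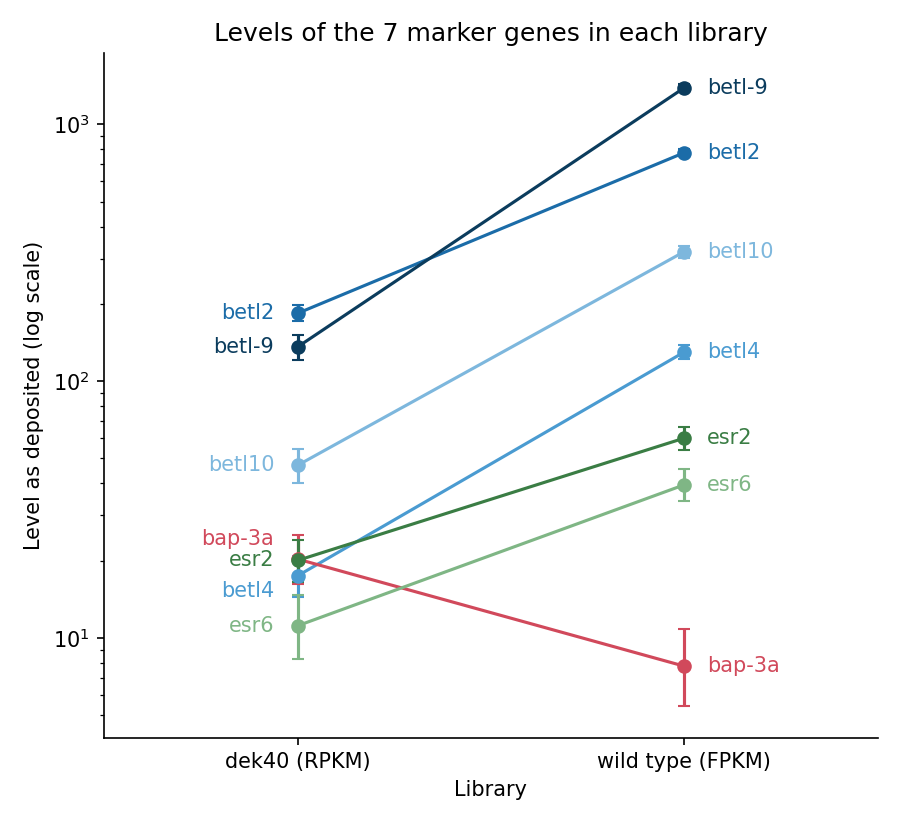
Levels of the 7 marker genes as deposited, on a log axis, in dek40 (left, RPKM) and the wild type (right, FPKM). Points are single libraries and bars are 95% counting intervals. All genes but bap-3a lie lower in dek40, and betl2 and betl-9 change places at the top.

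The transfer layer marker betl-9 (GRMZM2G087413), described as a 5a2 protein and related to lipid-transfer proteins, stood at 136 RPKM in dek40 endosperm and at 1389 FPKM in wild-type endosperm. It held rank 1436 of all 41406 genes in dek40 and rank 81 in the wild type, where it was the most abundant of the 7. Its log2 ratio was -3.76 (-3.95 to -3.61), or 13.6-fold lower, which placed it at rank 10 from the lowest among the 28178 genes. It rested on at least 311 reads in dek40 and 3505 in the wild type. A gene with the same description, AL-9 protein (GRMZM2G091054), is a relative made in the aleurone, the outer layer of the endosperm. It stood at 7778 RPKM in dek40 endosperm and at 2607 FPKM in wild-type endosperm, giving a log2 ratio of 1.16 (1.13 to 1.19). The level of betl-9 was therefore 0.0175 of that of AL-9 in dek40 (0.0156 to 0.0195) and 0.533 of it in the wild type (0.513 to 0.553). This ratio within a library does not depend on the scaling.

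The gene betl2 (GRMZM2G152655), also named bap2, encodes a secreted antifungal protein of the transfer layer. Its level was 184 RPKM in dek40 endosperm and 776 FPKM in wild-type endosperm, on at least 747 and 3478 reads. The log2 ratio of -2.49 (-2.62 to -2.38), or 5.62-fold lower, was the smallest difference among the 4 lower transfer layer markers. Its counting interval did not overlap that of any of the other three. Within a library, betl-9 stood at 0.74 times the level of betl2 in dek40 (0.646 to 0.845) and at 1.79 times its level in the wild type (1.71 to 1.88). The order of the top pair was thus turned round between the libraries, beyond counting error.

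The gene betl10 (GRMZM2G091445), described as a putative defensin, a kind of small cysteine-rich antimicrobial protein, stood at 47.0 RPKM in dek40 endosperm and at 319 FPKM in wild-type endosperm. Its log2 ratio was -3.15 (-3.43 to -2.95), on at least 169 and 1266 reads. The marker betl4 (GRMZM2G073290), a small secreted protein similar to inhibitors of digestive enzymes, stood at 17.4 RPKM in dek40 endosperm and at 130 FPKM in wild-type endosperm. Its log2 ratio, from no fewer than 117 and 960 reads, was -3.22, with an interval (-3.61 to -3.04) that overlapped that of betl10, so these ratios did not differ beyond counting error. After scaling, betl10 was 8.87-fold and betl4 9.32-fold lower, at ranks 47 and 38 from the lowest ratio of all genes.

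The marker that went the other way, bap-3a (GRMZM2G133382), belongs to the basal layer antifungal peptides. It stood at 20.3 RPKM in dek40 endosperm (16.1 to 25.1) and at 7.76 FPKM in wild-type endosperm (5.40 to 10.8), on at least 83 and 35 reads. It was the least abundant of the 7 in the wild type. Its log2 ratio of 0.88 (0.38 to 1.58) was under 2-fold, but it was past 2-fold with the values as deposited, at 1.28, where 14.7% of all genes were higher. It was also past 2-fold, at 1.09, when the libraries were scaled to the sum of all genes other than zeins, where 9.87% were higher.

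Other genes described as basal layer antifungal peptides lie near bap-3a in the gene order of RefSeq (assembly Zm-B73-REFERENCE-NAM-5.0), with 2 genes between it and bap-3b and 6 between it and bap1-b. These others were lower in dek40. The neighbour bap-3b (GRMZM2G133370) stood at 36.1 RPKM in dek40 endosperm and at 97.7 FPKM in wild-type endosperm, giving a log2 ratio of -1.82 (-2.13 to -1.58). The gene bap-1a (GRMZM2G008271) stood at 54.8 RPKM in dek40 endosperm and at 324 FPKM in wild-type endosperm, at -2.96 (-3.29 to -2.69). The last of them, bap1-b (GRMZM2G008403), stood at 6.54 RPKM in dek40 endosperm and at 29.8 FPKM in wild-type endosperm, at -2.39 (-3.20 to -2.06). The level of bap-3a was thus 0.561 of that of bap-3b in dek40 (0.423 to 0.739) and 0.0794 of it in the wild type (0.0546 to 0.112). Copies of a gene family can share reads, and the authors' counting of such reads is not stated, so the split between bap-3a and bap-3b is uncertain. Summed, this pair stood at 56.4 RPKM in dek40 endosperm and at 105 FPKM in wild-type endosperm, giving a log2 ratio of -1.30 (-0.89 as deposited). The sum of all 4 peptide genes was 118 RPKM in dek40 endosperm and 459 FPKM in wild-type endosperm, at -2.37.

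Both markers of the embryo-surrounding region were lower. The gene esr2 (GRMZM2G315601) is described as a CLE-related protein and encodes a secreted peptide of that signalling family. It stood at 20.0 RPKM in dek40 endosperm (16.5 to 24.1) and at 60.0 FPKM in wild-type endosperm (54.0 to 66.4), a log2 ratio of -1.93 (-2.32 to -1.70) from no fewer than 113 and 373 reads. The gene esr6 (GRMZM2G048353), a defensin, stood at 11.1 RPKM in dek40 (8.29 to 14.6) and at 39.4 FPKM in wild-type endosperm (34.2 to 45.3). Its log2 ratio was -2.12 (-2.72 to -1.79), on at least 51 and 199 reads. The intervals of the 2 ratios overlapped, and esr2 stood at 1.80 times the level of esr6 in dek40 (1.28 to 2.55) and 1.52 times in the wild type (1.28 to 1.81), so the proportion between them did not differ beyond counting error. The gene table also gives esr2 the name ESR1, and reads of near copies in this family could be counted together.

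The log2 differences of the embryo-surrounding markers were smaller than those of betl4, betl-9 and betl10, with no overlap of intervals. The interval of esr6 did overlap that of betl2. Summed, the 5 transfer layer markers stood at 404 RPKM in dek40 endosperm and at 2622 FPKM in wild-type endosperm. The log2 ratio of these sums, without a pseudocount, was -3.12. Most of the wild-type sum came from betl-9 (1389 FPKM) and betl2 (776 FPKM), and bap-3a, at 0.88, hardly weighed in it. The embryo-surrounding pair summed to 31.2 RPKM in dek40 endosperm and 99.4 FPKM in wild-type endosperm, giving a log2 ratio of -2.09, also without a pseudocount. All 7 genes together made up 0.0315% of the summed RPKM in dek40 and 0.189% of the summed FPKM in wild-type endosperm.

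The order of levels differed between the libraries. In dek40 it ran betl2, betl-9, betl10, bap-3a, esr2, betl4, esr6. There the intervals of bap-3a, esr2 and betl4 overlapped (16.1 to 25.1, 16.5 to 24.1 and 14.4 to 20.9 RPKM), and that of betl4 also met the upper end of that of esr6. In the wild type it ran betl-9, betl2, betl10, betl4, esr2, esr6, bap-3a, and no neighbours had overlapping intervals. The level of betl4 was 0.871 of that of esr2 in dek40 (0.667 to 1.14) and 2.16 times that of esr2 in the wild type (1.92 to 2.45).

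**Figure D2:**
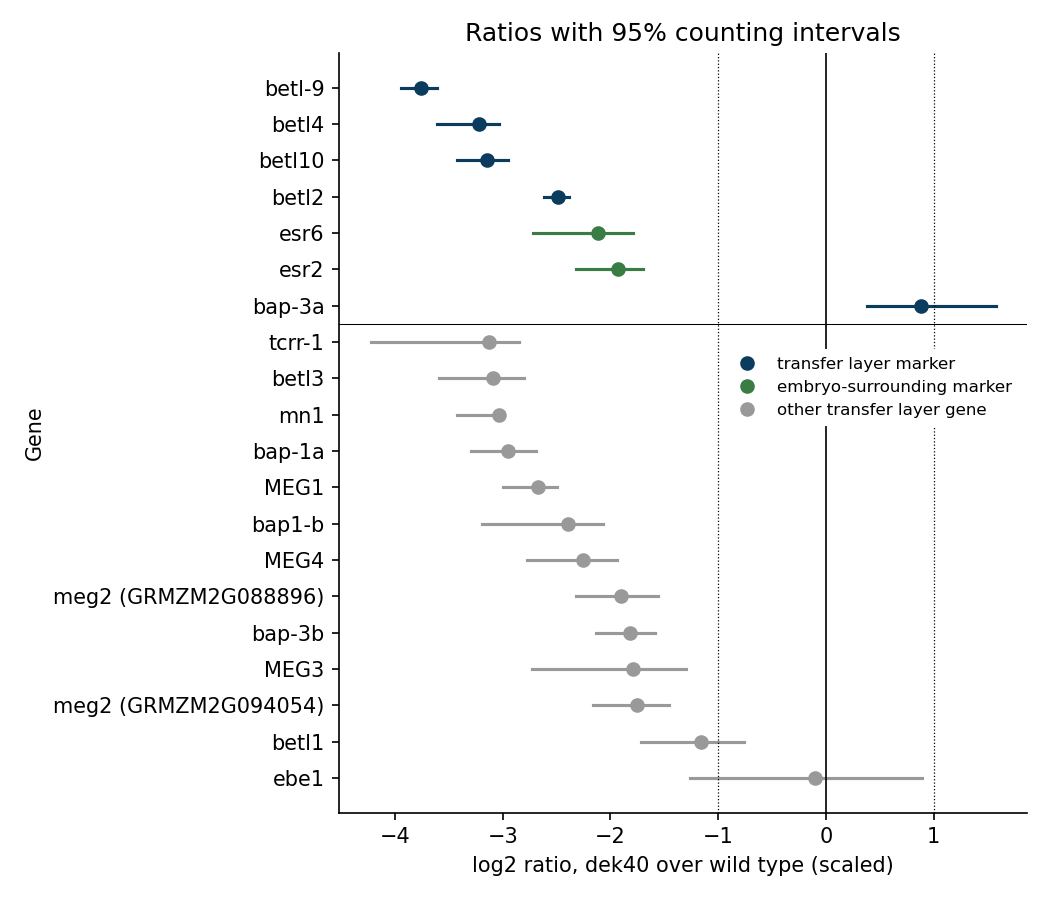
Log2 ratios, dek40 over wild type after scaling, of the 7 markers (upper block) and of the 13 other genes of the transfer layer list (lower block). Points are ratios with a pseudocount of 1, lines are 95% counting intervals of the ratio without it, and dotted lines mark 2-fold. The 2 genes that are not past 2-fold are bap-3a at 0.88 and ebe1 at -0.10.

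The list of transfer layer genes held 18 identifiers, found by symbol and description, of which 5 are markers above. Of the 13 others, 12 were lower, against 4.99% of all genes, and 0 were higher, against 6.33%. The median of their log2 ratios was -2.25. Setting these 13 apart from the markers was decided after seeing the data. Further genes with the name betl, betl3 (GRMZM2G175976, -3.09) and betl1 (GRMZM2G082785, -1.16), were lower. The first stood at 17.9 RPKM in dek40 endosperm and at 122 FPKM in wild-type endosperm, and the second at 16.0 RPKM in dek40 endosperm and at 28.0 FPKM in wild-type endosperm. With the values as deposited betl1 was at -0.77, within 2-fold. The gene table also gives betl1 the name betl1c, and how reads of any near copies were counted is not stated. The counting interval of betl1 (-1.71 to -0.76) did not overlap that of any of the lower markers betl2, betl4, betl-9 or betl10.

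The response regulator gene tcrr-1 (GRMZM2G016145), part of a signalling relay of transfer cells, stood at 3.96 RPKM in dek40 endosperm and at 33.5 FPKM in wild-type endosperm, giving a log2 ratio of -3.12. The invertase gene mn1 (GRMZM2G119689), whose enzyme splits sucrose on its way into the endosperm, stood at 8.53 RPKM in dek40 endosperm and at 59.3 FPKM in wild-type endosperm, giving a log2 ratio of -3.03. These ratios lie near those of betl4 and betl10. The gene MEG1 (GRMZM2G354335), whose maternal copy is expressed early in the transfer layer, stood at 21.7 RPKM in dek40 endosperm and at 109 FPKM in wild-type endosperm, at -2.67. Other genes named MEG were at -2.25 (MEG4, GRMZM2G137959) and -1.79 (MEG3, GRMZM2G344323). The identifiers GRMZM2G088896 (-1.90) and GRMZM2G094054 (-1.75) both belong to meg2 in the gene table, so they count this gene more than once. The gene not past 2-fold was ebe1 (GRMZM2G129157). It stood near the minimum level at 1.31 RPKM in dek40 endosperm and at 1.12 FPKM in wild-type endosperm, giving a log2 ratio of -0.10 (-1.27 to 0.89), so a difference was not detectable at this depth.

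**Figure D3:**
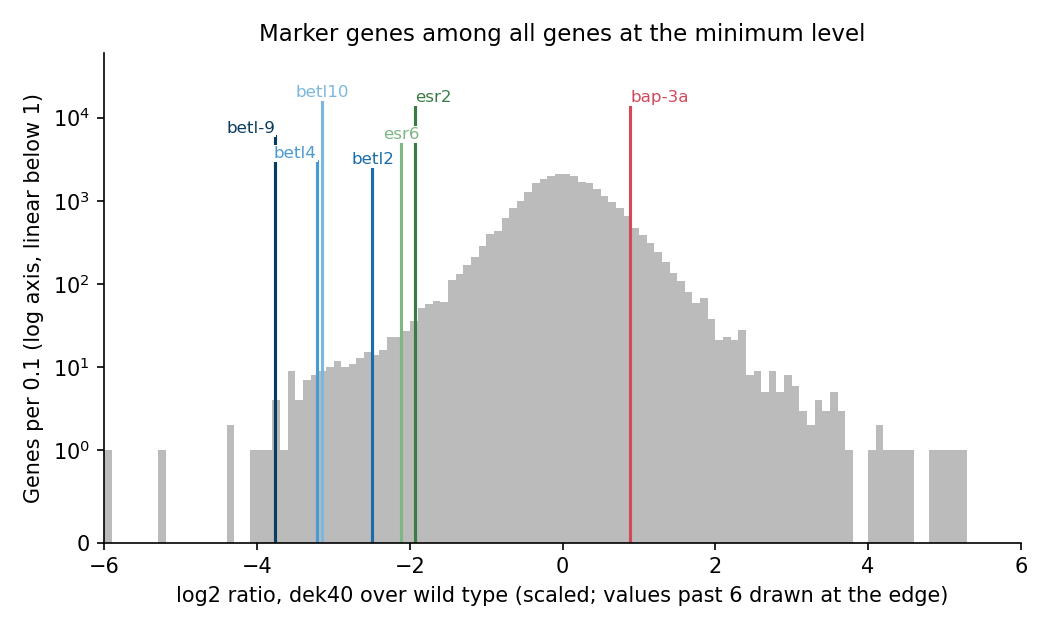
Number of genes per 0.1 of log2 ratio, dek40 over wild type after scaling, for the 28178 genes at the minimum level, on an axis that is logarithmic above 1. The vertical lines mark the 7 markers: 6 lie in the lower tail, from -3.76 to -1.93, and bap-3a lies at 0.88.

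The ratio of esr2, the nearest to 0 of the 6, was reached or passed downward by 250 of the 28178 genes (0.887%). The 28178 genes include low ones, whose ratios the pseudocount draws towards 0. With 2 libraries the pattern of a gene is a single ratio, so likeness was measured as the distance of its log2 ratio from the markers' median of -2.49. Among described genes outside the lists at 100 or more in a library, the nearest was Endochitinase B (GRMZM2G005633), at 67.2 RPKM in dek40 endosperm and at 285 FPKM in wild-type endosperm, giving a log2 ratio of -2.48. The next were 2 genes described as subtilisin-chymotrypsin inhibitor CI-1B (GRMZM2G012928 at -2.36 and GRMZM2G012806 at -2.28). A defensin (GRMZM2G437040) at -2.26 and an inhibitor CI-1C (GRMZM2G058358) at -2.06 followed.

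**Figure D4:**
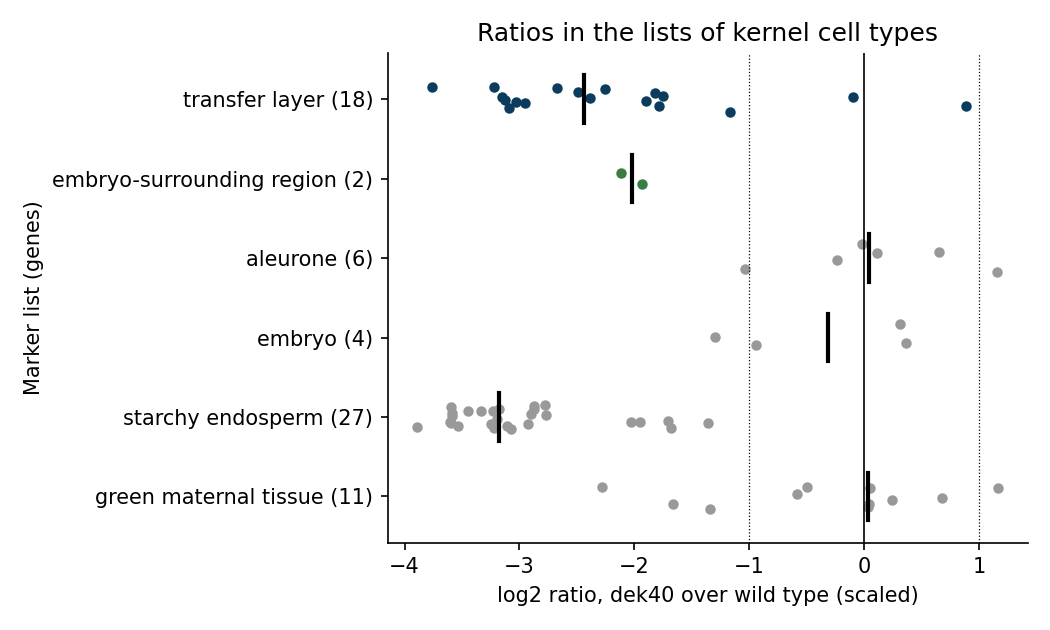
Log2 ratios, dek40 over wild type after scaling, of single genes (points) in the marker lists of kernel cell types, with the median of each list as a bar and the number of genes at the minimum level in brackets. Dotted lines mark 2-fold; the medians lie at -2.44 for the transfer layer, -2.03 for the embryo-surrounding region, 0.04 for the aleurone and -3.18 for the starchy endosperm.

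Markers of other cells of the kernel moved with these genes in part. All 27 starchy endosperm genes at the minimum level, mostly zein storage proteins, were lower, against 4.99% of all genes. Their median log2 ratio was -3.18. Their list made up 3.88% of the summed RPKM in dek40 and 19.7% of the summed FPKM in wild-type endosperm. The lead gene gz27 (GRMZM2G138727) had a log2 ratio of -1.71. The aleurone list had 1 of 6 genes lower and 1 higher, against 4.99% and 6.33% of all genes, and a median of 0.04. Its sum was 8051 RPKM in dek40 endosperm and 2878 FPKM in wild-type endosperm, most of it AL-9.

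The embryo list had 1 of 4 genes lower and 0 higher, against 4.99% and 6.33% of all genes. This list had a median of -0.32 (0.10 as deposited) and summed to 494 RPKM in dek40 endosperm and 679 FPKM in wild-type endosperm. Its most abundant gene in the wild type was the oleosin gene ole16 (GRMZM2G337229), at -0.94. In the list of green maternal tissue 3 of 11 were lower and 1 higher (median 0.03), against the same 4.99% and 6.33% of all genes. This list summed to 30.0 RPKM in dek40 endosperm and 43.3 FPKM in wild-type endosperm. Its most abundant gene in the wild type was a photosystem II W protein (AC190623.3_FG001), at -2.28. No marker of any list was at 0 in either library, as 0 of the 41406 genes had that value. The part of these differences in the ratios of the 7 markers was not tested.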

How the data were processed

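Endosperm RNA of 1 library labelled dek40 and 1 wild-type library was analysed from 1 table each. The authors deposited values headed RPKM for dek40 and FPKM for the wild type, per the file headers. The submitters' processing notes name Bowtie2 2.1.0 and the build B73 RefGen_v3; the counting, the annotation and any filter are not stated in the sources used. Both tables listed the same 41406 genes, and 0 had a value of 0. Whether genes read in 1 library alone were left out or given a floor value is not stated.

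In each of the 41406 genes the dek40 value divided by the wild-type value was written as a fraction of whole numbers times 1.102 (relative tolerance 1e-12). The size of the whole numbers was not limited, so any ratio would meet this, and it is no check of the constant. The constant is the commonest ratio, assumed to stand for equal reads in the libraries. Under that assumption, the constant written as a fraction gives totals of 14218436 for dek40 and 15669149 for the wild type. The reads given here rest on these totals, and whether they are reads or read pairs is not known. The smallest whole reads that give each ratio and a whole gene length are lower bounds and summed to 86.2% and 86.4% of those totals. No count test was run. They gave exact Clopper-Pearson 95% intervals of ratios without a pseudocount, and exact Poisson intervals of levels, both at least as wide as the true reads would give.

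Scaling used the median of 25115 genes at 1 or more in both libraries. The procedure was tested on simulated libraries that were alike apart from a few genes changed in both directions. It was not tested on libraries of unlike composition, such as these. The 7 markers, the lists and the rule for named genes (the markers, the listed genes of their cells, the most abundant wild-type gene of each other list, the 5 described genes nearest in ratio, and AL-9) were chosen with earlier results of these data known. Names came from the deposited descriptions and RefSeq's gene table (Zm-B73-REFERENCE-NAM-5.0), which matched 16689 of 41406 identifiers and all 7 markers. As this is another build, its coordinates are left out. Python 3.11.15, numpy 2.4.6, pandas 2.3.3 and scipy 1.17.1 were used. Alternatives changed the scaling, the pseudocount, the minimum level and the fold.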

Additional observations from a re-analysis of the deposited data

How the results depend on the processing

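The count of lower markers was 6 of 7 under every alternative scaling, pseudocount and minimum level tried, and 5 at 4-fold. Their median stayed between -2.50 and -2.07, and no marker changed sign. Scaling moved single ratios by more than counting error. As deposited, all 6 lower markers lay outside their counting intervals, with betl-9 at -3.34. With the values as deposited, 1 marker (bap-3a) and so 1 gene of the transfer layer list was higher, and over all genes 771 were lower and 4282 higher. With scaling to the sum without zeins, chosen after seeing the data, 1 marker and 1 gene of the list were again higher. Over all genes 1004 were then lower and 2830 higher. With a pseudocount of 0.1, 2370 genes were lower and 3139 higher, and with 5, 558 and 514. A minimum level of 5 gave 980 lower and 1152 higher genes, and scaling on genes at 10 or more gave 1282 and 2027. Leaving zeins out of the median, or dropping the minimum level, gave 1406 and 1784, the same as in the main setting. At 4-fold, 223 genes were lower and 177 higher, and 7 of the 13 other transfer layer genes were lower; under the remaining alternatives it was 11 or 12 of the 13. Values for these 13 apart from the markers were added after seeing the data. Depth limits the precision of low genes: bap-3a rested on at least 83 reads in dek40 and 35 in the wild type, and ebe1 on at least 17 and 16. No paired analysis was possible because each genotype has 1 library.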

Other observations

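Genes with defensin in their description, other than the markers betl10 and esr6, were looked up after their values were seen. A gene described as Defensin (GRMZM2G437040) stood at 38.6 RPKM in dek40 endosperm and at 142 FPKM in wild-type endosperm, giving a log2 ratio of -2.26 (-2.58 to -2.03). Defensin-like protein 2 (GRMZM2G368861) stood at 36.6 RPKM in dek40 endosperm and at 49.4 FPKM in wild-type endosperm, at -0.83 (-1.13 to -0.58). Defensin-like protein 1 (GRMZM2G368890) stood at 6.50 RPKM in dek40 endosperm and at 13.9 FPKM in wild-type endosperm, at -1.35, with a wide interval of -2.69 to -0.45 on at least 11 and 26 reads. The remaining gene with the description 5a2 protein, beside betl-9 and AL-9, was GRMZM2G063375, at 25.6 RPKM in dek40 endosperm and at 68.8 FPKM in wild-type endosperm, giving a log2 ratio of -1.79 (-2.14 to -1.56).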
